A study of Mus musculus with 36 samples.

Results

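The complement genes described here are 9 of the 23626 genes or unnamed rows with RNA counts in this study of mouse knee cartilage: the C1q chains C1qa, C1qb and C1qc, the C1 protease gene C1ra, the components C2, C4b and C3, and the regulators Serping1 and Cd55. They were chosen by name for their place in the complement system, with earlier results of these data known. Where a gene could have several RefSeq rows, the row with the highest mean count over the 12 RNA libraries stood for it, and each of the 9 had 1 row.

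Complement is a cascade of blood and tissue proteins that tag and attack microbes, dying cells and damaged matrix. In the classical branch the C1q molecule, built from 3 kinds of chain, recognizes its target and carries the proteases C1r and C1s, which cut C4 and C2 to make an enzyme that cleaves C3, the step where all branches meet. Macrophages are a main source of C1q in tissue, the liver supplies most circulating C3 and C4, and mesenchymal cells also make C1r, C1s and the C1 inhibitor. Complement proteins and their cleavage products are found in osteoarthritic joints.

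The study compared tibial and femoral cartilage of C57BL/6J mice, an inbred strain, after surgery that frees the medial meniscus from its ligament (DMM), which leads to osteoarthritis. The right knee of male mice was operated on (DMM) and the left knee was left unoperated (control), so treatment and body side cannot be told apart, and the controls were not sham-operated. Tissue was taken 4 or 12 weeks later, and each limb gave 3 RNA libraries and 3 oxidative bisulfite DNA libraries at each time, the DNA from other mice than the RNA. Each library held cartilage pooled from several knees, and the time after surgery cannot be told apart from the age of the mice.

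The RNA libraries held 27706547 to 62737656 counts, and the member genes had between 135 and 25710 counts in each library. Levels are given as CPM, the counts of a gene scaled to the size of its library. All 16 chondrocyte markers were detected, with a summed level of 11567 to 41137 CPM, but the libraries also held RNA of muscle (126 to 26190 CPM over 16 markers), marrow and neutrophils (9502 to 44775 CPM over 12 markers) and macrophages (2390 to 7180 CPM over 15 of 16 markers). Fewer cells of a type and less RNA per cell cannot be told apart in such bulk samples. The 7 hepatocyte markers, 1 of them at 0 in all libraries, summed to 1.77 to 9.49 CPM.

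Per kilobase of transcript, Serping1 had the highest mean level over the 12 libraries (169 CPM per kb), followed by C1qb (155), C1qc (140.3), C1qa (65.4), C3 (35.1), C4b (33.6), Cd55 (25.0), C1ra (6.29) and C2 (1.66). In 4-week DMM cartilage Serping1 was at 323 ± 94.0, C1qb at 253 ± 115 and C1qc at 225 ± 89.4 CPM per kb (SD, n = 3). The SD is that between libraries, and all genes were read in the same libraries, so it does not measure the difference between genes. In 12-week control cartilage the order was another one, with C1qb (125 ± 8.12) and C1qc (109 ± 8.53) above Serping1 (71.1 ± 12.4 CPM per kb).

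Promoter sequences are shown for 2 of the C1q neighbours and for C3, to set their motifs beside their RNA. C1qa, C1qb and C1qc lie side by side on the minus strand within 18.7 kb (chr4:136880126-136898844, GRCm38). The 250 bases before the start of C1qb (chr4:136886201-136886450), C1qc (chr4:136892915-136893164) and C3 (chr17:57228137-57228386), all on the minus strand of RefSeq's GRCm38.p6, follow 5′ to 3′, with motif matches in capitals.
C1qb: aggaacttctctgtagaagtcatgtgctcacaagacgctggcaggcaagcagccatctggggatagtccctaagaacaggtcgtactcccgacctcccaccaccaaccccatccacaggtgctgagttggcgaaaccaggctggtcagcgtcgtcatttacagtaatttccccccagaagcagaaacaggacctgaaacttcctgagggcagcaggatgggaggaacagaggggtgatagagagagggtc
C1qc: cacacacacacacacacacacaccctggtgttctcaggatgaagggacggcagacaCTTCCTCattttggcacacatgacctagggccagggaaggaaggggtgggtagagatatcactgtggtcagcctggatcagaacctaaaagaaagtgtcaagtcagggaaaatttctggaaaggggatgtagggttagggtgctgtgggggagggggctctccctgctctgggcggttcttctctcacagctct
C3: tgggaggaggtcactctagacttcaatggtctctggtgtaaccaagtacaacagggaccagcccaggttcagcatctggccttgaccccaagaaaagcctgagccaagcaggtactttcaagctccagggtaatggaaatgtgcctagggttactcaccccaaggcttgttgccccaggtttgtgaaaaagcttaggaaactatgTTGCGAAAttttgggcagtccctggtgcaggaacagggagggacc

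Both strands of 5 member promoters (those of C1ra and Cd55 too) were searched for GAGGAAG (PU.1), TGANTCA (AP-1), TTCNNNGAA (STAT), TTNNGCAA (C/EBP), GGGANTTTC (NF-kB) and GAAANNGAA (ISRE). The promoters of C1qa, C2, C4b and Serping1 were not analysed here. There were 2 matches. C1qc held the PU.1 letters 194 to 188 bases before its start, which 10.6% of all 32851 promoters in the table hold, and C3 held the C/EBP letters 45 to 38 bases before its start, which 9.56% hold. C1qb had no exact match to the 6 motifs in this window, though its letters cttcctg differ from the C1qc match in the last base only. A match, or the lack of one, describes the letters alone.

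The first question was whether complement RNA differed between DMM and control cartilage 4 weeks after surgery. None of the 9 genes passed edgeR's quasi-likelihood test at an adjusted p under 0.05, against 0.0757% of all 21140 rows tested. At an unadjusted p under 0.05 there were 7 of 9, against 13.7% of all rows, and DESeq2 called 1, Cd55. The log2 fold change was above 0 for 8 of 9 genes, with a median of 0.84 beside -0.02 over all genes tested. The members were chosen with earlier results known, and the C1q chains among them moved together. These counts therefore do not speak for complement genes as a set. Of 35 other complement genes tested, 6 had an unadjusted edgeR p under 0.05.

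The C1q chains form the recognition molecule. C1qa was at 45.9, 78.2 and 69.3 CPM in control and 76.5, 108 and 164 CPM in DMM libraries. The lowest DMM library lay just below the highest control library, so the groups overlapped. Its log2 fold change was 0.84 ± 0.32 (SE, edgeR adjusted p = 0.335). C1qb was at 120.4, 173 and 159 CPM in control and 168, 253 and 418 CPM in DMM libraries (log2 fold change 0.88 ± 0.34, edgeR adjusted p = 0.340). C1qc was at 116, 169 and 136 CPM in control and 151, 224 and 338 CPM in DMM libraries (0.75 ± 0.31, edgeR adjusted p = 0.357). All 3 chains had the same shape, 1 DMM library near the controls and DMM replicate 3 far above them.

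C1ra encodes the protease that C1q activates first. It was at 16.7, 19.3 and 10.9 CPM in control and 22.7, 23.1 and 39.2 CPM in DMM libraries. All DMM values lay above all control values. The log2 fold change was 0.86 ± 0.29 (edgeR adjusted p = 0.318). C2, the protease part of the classical C3-cutting enzyme, was the lowest member, at 3.54, 3.03 and 5.08 CPM in control and 3.93, 4.89 and 4.91 CPM in DMM libraries (log2 fold change 0.23 ± 0.28, edgeR adjusted p = 0.699).

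C4b, the other part of that enzyme, was the only member with a log2 fold change below 0. It was at 251, 234 and 113 CPM in control and 149, 83.9 and 57.0 CPM in DMM libraries. Control replicate 3 lay among the DMM values, so the groups overlapped. The log2 fold change was -1.04 ± 0.42 (edgeR adjusted p = 0.353). Its near-identical paralog C4a had 0 to 13 counts in a library, at most 0.148% of the reads counted for the pair, and reads that match both genes cannot be told apart here. C3, the central component, was at 75.2, 201 and 192 CPM in control and 129, 134 and 265 CPM in DMM libraries. Its log2 fold change of 0.16 ± 0.42 (edgeR adjusted p = 0.865) turned negative without control replicate 1 (-0.16) or DMM replicate 3 (-0.24).

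The regulators had log2 fold changes above 1, similar in size to that of C4b in the other direction. Serping1, the C1 inhibitor that blocks C1r and C1s, was at 298, 399 and 139 CPM in control and 469, 510.4 and 784 CPM in DMM libraries. Cd55, a membrane protein that breaks up the C3-cutting enzymes, was at 50.9, 62.3 and 42.6 CPM in control and 82.2, 110.4 and 179 CPM in DMM libraries. For both genes the lowest DMM value exceeded the highest control value. The log2 fold change was 1.08 ± 0.39 for Serping1 (edgeR adjusted p = 0.330). For Cd55 it was 1.25 ± 0.30, a 2.38-fold difference (edgeR adjusted p = 0.252, DESeq2 adjusted p = 0.00913). DESeq2 called 3.44% of all rows in this comparison. In all, 3 of 9 members were higher in every DMM library (C1ra, Serping1 and Cd55) and 0 lower, against 10.8% and 10.3% of 15539 genes.

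**Figure D1:**
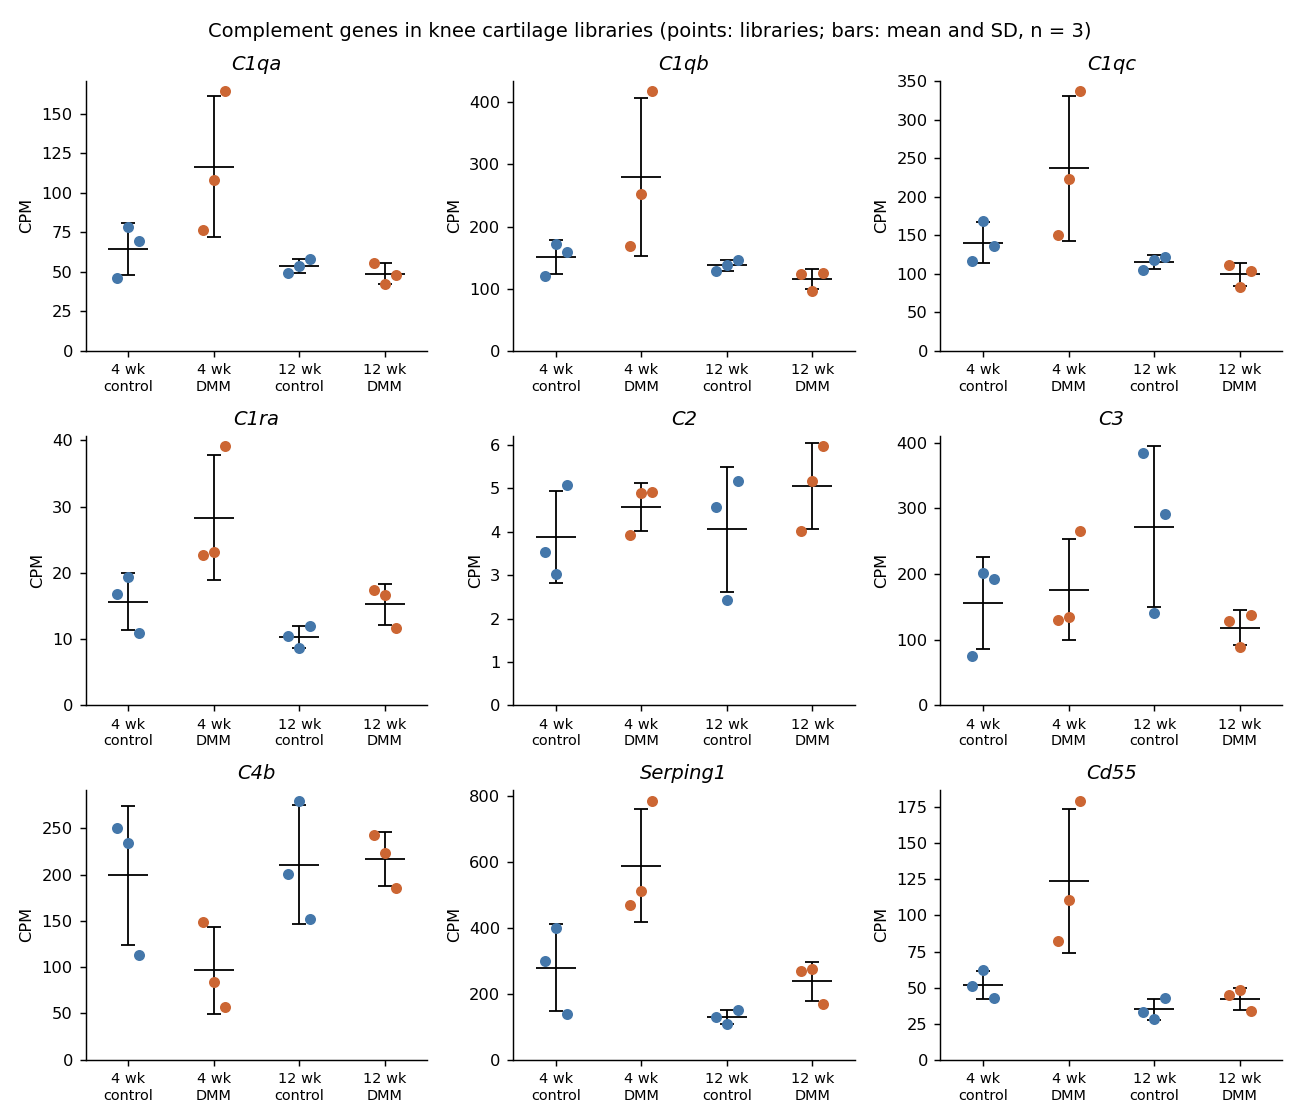
Level of each complement gene in CPM (vertical axes, each from 0) in the 12 RNA libraries by time and limb, with 1 point for each library and bars for the mean and SD of 3 libraries. The 4-week DMM libraries were the highest group for C1qa, C1qb, C1qc, C1ra, Serping1 and Cd55, and the lowest for C4b.

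DMM replicate 3 weighed on these values. Without it the log2 fold change was 0.52 for C1qa, 0.48 for C1qb, 0.42 for C1qc, 0.56 for C1ra, 0.82 for Serping1 and 0.90 for Cd55. Marker RNA of other cell types is given beside these values: the summed level of 14 fibroblast and synovium markers was 10250 to 17721 CPM in control and 21928 to 27214 CPM in DMM libraries, that of 16 muscle markers 6908 to 26190 and 684 to 4207 CPM. The 10 osteoblast markers summed to 3964 to 6493 CPM in control and 7573 to 8738 CPM in DMM libraries, and 13 of 16 chondrocyte markers had a log2 fold change below 0 (median -0.80). Of the macrophage markers 13 of 15 had a log2 fold change above 0 (median 0.28). Of all these markers edgeR called 1, a muscle marker that was lower. None of these lists had a marker at 0 in all libraries. Their part in the members' values was not tested.

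The same question was asked at 12 weeks. Here 0 of 9 genes passed edgeR's test, against 0.00476% of 21010 rows, with 3 of 9 at an unadjusted p under 0.05 (16.3% of all rows) and 2 called by DESeq2, C3 and Serping1, where DESeq2 called 4.02% of all rows. The log2 fold change was above 0 for 5 of 9 genes (median 0.05, beside 0.02 over all genes).

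C1qa was at 49.1, 53.9 and 58.0 CPM in control and 55.6, 42.4 and 48.2 CPM in DMM libraries (log2 fold change -0.13 ± 0.15, edgeR adjusted p = 0.659). C1qb was at 129, 138 and 146 CPM in control and 123, 96.7 and 126 CPM in DMM libraries (-0.25 ± 0.15, edgeR adjusted p = 0.417). C1qc was at 105, 117 and 122 CPM in control and 111, 82.7 and 104 CPM in DMM libraries (-0.20 ± 0.15, edgeR adjusted p = 0.508). Of the chains, only C1qb was lower in every DMM library than in every control library.

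C1ra was at 10.4, 8.67 and 11.9 CPM in control and 17.4, 16.6 and 11.7 CPM in DMM libraries, which overlapped through DMM replicate 3 (log2 fold change 0.57 ± 0.21, edgeR adjusted p = 0.273). C2 was at 4.57, 2.42 and 5.16 CPM in control and 4.03, 5.17 and 5.98 CPM in DMM libraries (0.32 ± 0.31, edgeR adjusted p = 0.60). C4b was at 200.2, 280.0 and 152 CPM in control and 243, 223 and 185 CPM in DMM libraries (0.05 ± 0.23, edgeR adjusted p = 0.929). The values of C2 and C4b in the DMM knee lay inside or close to the range of the control knee.

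C3 had the largest difference at this time. It was at 384, 141 and 291 CPM in control and 129, 88.8 and 138 CPM in DMM libraries. The limbs did not overlap, though control replicate 2 was close to the highest DMM library. The log2 fold change was -1.19 ± 0.36, 2.29-fold lower (edgeR adjusted p = 0.240, DESeq2 adjusted p = 0.0171). Without control replicate 2 it was -1.54 and passed edgeR's test (adjusted p = 0.0333), and without each of the other libraries it ranged from -1.31 to -0.89, with edgeR adjusted p of 0.173 to 0.705.

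Serping1 was at 129, 107 and 152 CPM in control and 268, 275 and 168 CPM in DMM libraries, again higher in every DMM library. Its log2 fold change was 0.88 ± 0.23 (edgeR adjusted p = 0.215, DESeq2 adjusted p = 0.0160). Cd55 was at 33.4, 28.6 and 43.1 CPM in control and 45.1, 48.2 and 33.7 CPM in DMM libraries (0.28 ± 0.20, edgeR adjusted p = 0.481). Serping1 was the 1 member of 9 that was higher in every DMM library, against 9.9% of all genes, and C1qb and C3 were the 2 that were lower, against 8.42%. Beside them, 13 of 15 macrophage markers had a log2 fold change below 0, 8 of them lower in every DMM library, all 16 chondrocyte markers were above 0, and all 12 neutrophil and marrow markers were below 0 (median -0.50). Of the 14 fibroblast and synovium markers 9 were above 0 and 5 below (median log2 fold change 0.66). In every DMM library 8 of them were higher and 1 was lower. The 10 osteoblast markers summed to 2748 to 4246 CPM in control and 5072 to 7036 CPM in DMM libraries. None of these markers was called by edgeR, and their part in the members' values was not tested.

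Whether the limb difference changed between the times was tested as the interaction of limb and week. None of 9 members passed (edgeR, 0.0% of 21618 rows), with 5 of 9 at an unadjusted p under 0.05, against 12.3% of all rows, and 0 called by DESeq2, which called 0.0613%. The interaction was -0.99 ± 0.37 for C1qa, -1.15 ± 0.39 for C1qb, -0.97 ± 0.36 for C1qc, -1.37 ± 0.61 for C3 and -0.98 ± 0.39 for Cd55 on the log2 scale, each with an edgeR adjusted p of 0.405. That of C4b went the other way, at 0.81 to 1.54 when single libraries were left out. A change of the limb difference between the times was therefore not shown for any member.

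Between 4 and 12 weeks, control cartilage gave 0 of 9 calls by edgeR (0.0% of 21222 rows), 3 of 9 at an unadjusted p under 0.05 (21.2% of rows) and 1 by DESeq2, Serping1, where DESeq2 called 11.7%. None of 9 had times that did not overlap, against 27.0% of genes. Serping1 had a log2 fold change of -1.12 ± 0.38 (edgeR adjusted p = 0.170, DESeq2 adjusted p = 0.0364). Without control replicate 3 of 4 weeks it was called by edgeR too (adjusted p = 0.0171), as was C1ra (adjusted p = 0.0369). Beside these values, 10 of 14 fibroblast and synovium markers had a log2 fold change below 0 in control cartilage and 4 above (median -0.81). In every 12-week control library 6 of them were lower and 2 higher than in every 4-week one. The log2 fold change was below 0 for 8 of 8 adipocyte and 16 of 16 muscle markers as well. It was above 0 for 12 of 12 neutrophil and marrow markers (median 1.03). None of these markers was called by edgeR, and their part in the members' values was not tested.

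In DMM cartilage, 7 of 9 members differed between 12 and 4 weeks in edgeR's test, in a comparison that called 23.8% of all 20951 rows. Of these 6 fell, against 11.7% of all rows, and 1 rose, against 12.1%. This comparison uses the same DMM libraries as the limb comparisons above, so its values and theirs are not independent. Marker genes moved in it as well: 6 of 14 fibroblast and synovium markers fell and 2 rose (median log2 fold change -0.82). The adipocyte list, of which 4 of 8 fell, holds Cfd, which is also a complement gene. Of the endothelium markers 4 of 8 fell, 6 of 15 macrophage markers fell and 1 rose, and 5 of 16 chondrocyte markers rose. Their part in the members' values was not tested.

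The C1q chains fell together: C1qa by 2.46-fold (log2 fold change -1.30 ± 0.26, edgeR adjusted p = 0.0104), C1qb by 2.49-fold (-1.32 ± 0.30, edgeR adjusted p = 0.0146) and C1qc by 2.46-fold (-1.30 ± 0.28, edgeR adjusted p = 0.0120). C1ra fell by 1.92-fold (-0.94 ± 0.25, edgeR adjusted p = 0.0260). Serping1 fell by 2.55-fold (-1.35 ± 0.27, edgeR adjusted p = 0.00929) and Cd55 by 3.02-fold (-1.59 ± 0.28, edgeR adjusted p = 0.00662). In each of these 6 genes every 12-week DMM library was below every 4-week DMM library, as in 19.5% of all genes. The same 6 genes had a log2 fold change below 0 in control cartilage too, without a call by edgeR. Over alternative fits that kept all libraries it was -0.29 to -0.25 for C1qa, -0.16 to -0.13 for C1qb and -0.32 to -0.29 for C1qc. It was -0.62 to -0.59 for C1ra, -0.59 to -0.57 for Cd55 and -1.13 to -1.02 for Serping1. No member passed the interaction test.

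C4b went the other way and rose 2.18-fold (log2 fold change 1.13 ± 0.31, edgeR adjusted p = 0.0280), with all 12-week values above all 4-week values, as in 23.3% of all genes. C3 (-0.61 ± 0.29, edgeR adjusted p = 0.150) and C2 (0.10 ± 0.24, edgeR adjusted p = 0.780) did not pass. The calls of C1qa, C1qc, Serping1 and Cd55 held without any 1 of the 6 libraries. C1qb lost its call without DMM replicate 2 of 12 weeks (adjusted p = 0.0523). C1ra lost it without DMM replicate 3 of 4 weeks or replicate 2 or 3 of 12 weeks (highest adjusted p 0.0895), and C4b in all cases but that without replicate 1 of 4 weeks (highest adjusted p 0.0961).

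**Figure D2:**
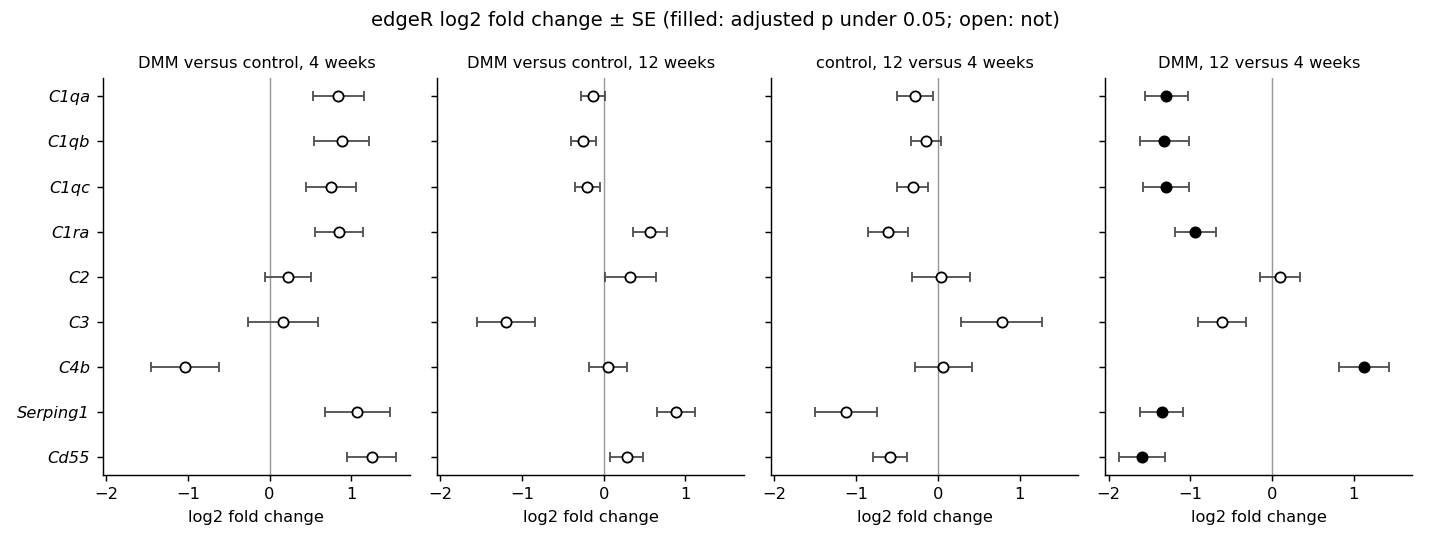
edgeR log2 fold change of the 9 complement genes (horizontal axis) with its SE in 4 comparisons, filled where the adjusted p was under 0.05 and open where it was not. Filled points appear in the comparison of 12 with 4 weeks in DMM cartilage, 6 below 0 and C4b above 0.

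The C1q chains kept nearly constant proportions while their sum varied widely. Over the 12 libraries the summed level of C1qa, C1qb and C1qc ran from 222 to 920 CPM, a 4.15-fold range. Per length, C1qa made up 16.2 to 19.3% of the sum, C1qb 40.2 to 44.6% and C1qc 37.6 to 42.2%, so the widest of these shares varied 1.19-fold. By contrast, the ratio of C3 to C4b, genes of adjoining steps, ran from 0.30 to 4.65.

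**Figure D3:**
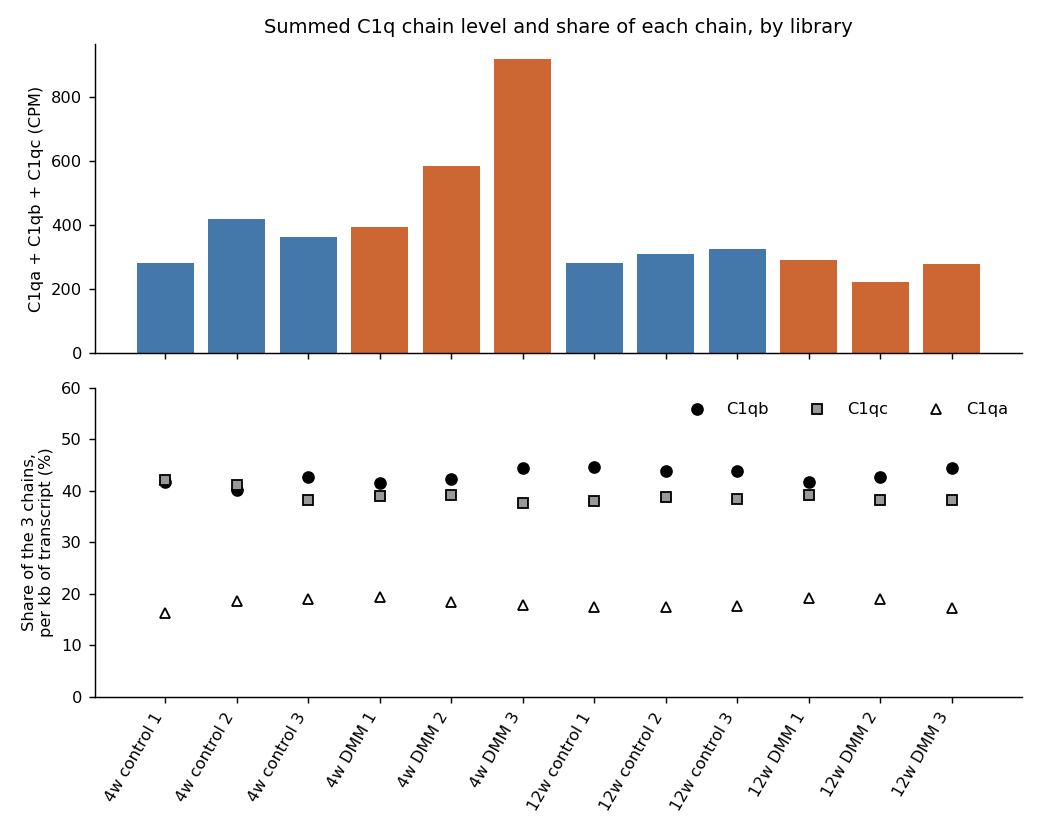
Top, summed CPM of the C1q chains in each RNA library (blue, control, orange, DMM), and bottom, the share of each chain in that sum per kilobase of transcript. The sum reached 920 CPM in DMM replicate 3 of 4 weeks, while C1qa stayed the lowest share in every library, at 16.2 to 19.3%.

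Macrophage markers were set beside the C1q sum. The list without Lyz2, a gene also abundant in neutrophils, was at 803 to 1625 CPM in 4-week control, 1166 to 1971 in 4-week DMM, 1512 to 1842 in 12-week control and 1159 to 1541 CPM in 12-week DMM libraries, and no detected marker was at 0 throughout. The C1q sum divided by it was 0.301 ± 0.068 in 4-week control, 0.397 ± 0.065 in 4-week DMM, 0.181 ± 0.023 in 12-week control and 0.196 ± 0.018 in 12-week DMM libraries (SD, n = 3). Every 4-week library was above every 12-week library in this ratio. Beside it, the neutrophil and marrow markers summed to 17608 ± 9103 CPM in 4-week and 36513 ± 9092 CPM in 12-week control libraries. In DMM libraries they summed to 17962 ± 3615 and 26084 ± 7605 CPM (SD, n = 3). Their part in the ratio was not tested. The 15 macrophage markers had a median log2 fold change of -0.52 from 4 to 12 weeks in DMM cartilage, beside -0.03 over all genes. There 10 of them were below 0 and 5 above. In control cartilage their median was 0.22, beside -0.02 over all genes, with 9 above 0 and 6 below. The part of macrophage content in the C1q values was not tested.

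**Figure D4:**
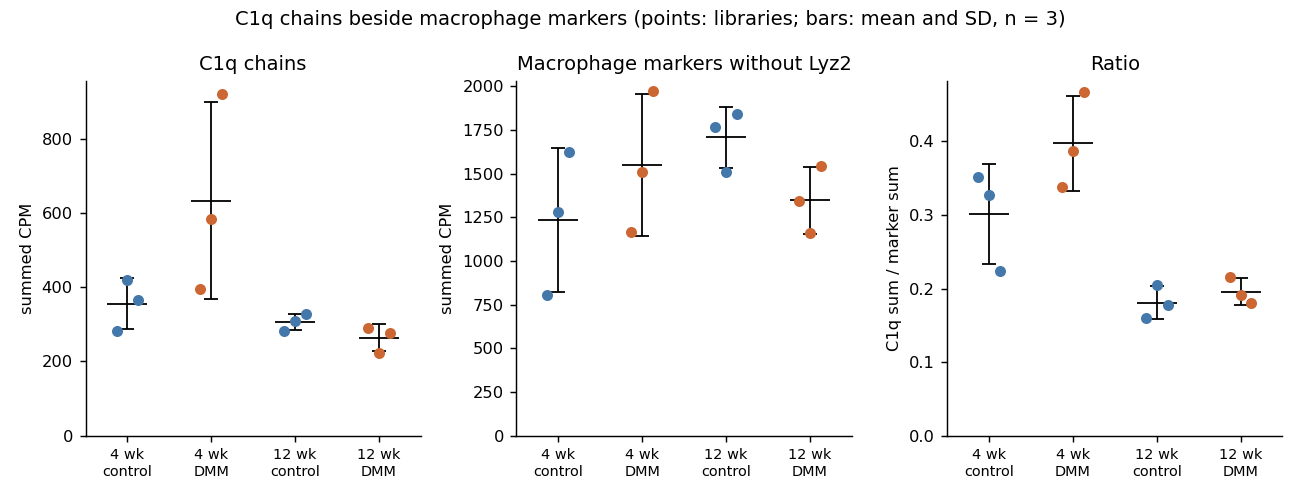
Summed CPM of the C1q chains, summed CPM of the macrophage markers without Lyz2, and the ratio of both, by time and limb, with 1 point for each library and bars for the mean and SD of 3 libraries. The ratio was 0.224 to 0.467 at 4 weeks and 0.160 to 0.216 at 12 weeks.

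The rest of the system was read from 50 other complement genes, of which 34 to 36 passed the filter on low counts in a comparison. Between DMM and control edgeR called 0 at 4 weeks (6 at an unadjusted p under 0.05, 2 by DESeq2, C1s1 and C3ar1) and 0 at 12 weeks (5 at an unadjusted p under 0.05, 3 by DESeq2, C1s1, Itgam and Vsig4). The shares over all rows were 13.7% and 16.3% unadjusted, and 3.44% and 4.02% by DESeq2. From 4 to 12 weeks in DMM cartilage 4 rose and 8 fell of 34, where 12.1% of all rows rose and 11.7% fell. In control cartilage edgeR called 0 of 34 over the same time (9 at an unadjusted p under 0.05, against 21.2% of all rows, and 7 by DESeq2, against 11.7%), but the fold changes of several were close to those in DMM cartilage. In control the log2 fold change was -3.19 for Vsig4, -1.86 for Cfd, -0.999 for Colec12, 1.29 for C5ar2 and -1.14 for C1s1, with edgeR adjusted p of 0.0713 to 0.158. The values that follow are those of DMM cartilage, and none of these genes passed the interaction test. C1s1, the protease partner of C1ra, fell (log2 fold change -1.61 ± 0.30, edgeR adjusted p = 0.00775). In the alternative branch Cfd, the protease factor D (-1.89 ± 0.30, edgeR adjusted p = 0.00555), and Cfb, the factor it cuts (-1.21 ± 0.27, edgeR adjusted p = 0.0141), fell. Cfp, which stabilizes the alternative C3-cutting enzyme, had 0.21 ± 0.26 (edgeR adjusted p = 0.558).

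Among regulators the membrane protein Cr1l fell (-0.57 ± 0.19, edgeR adjusted p = 0.0491), while Clu, the abundant fluid regulator clusterin, had 0.46 ± 0.24 (edgeR adjusted p = 0.188). Of the receptors C3ar1 (-2.85 ± 0.52, edgeR adjusted p = 0.0135) and Vsig4, a macrophage receptor for C3 fragments (-3.32 ± 0.36, edgeR adjusted p = 0.00356), fell. C5ar2 (1.47 ± 0.27, edgeR adjusted p = 0.00734), Itgb2, the shared chain of the integrin receptors for C3 fragments (0.69 ± 0.21, edgeR adjusted p = 0.0395), and C1qbp (0.63 ± 0.18, edgeR adjusted p = 0.0342) rose. C5ar1 had 0.44 ± 0.19 (edgeR adjusted p = 0.114).

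In the lectin branch Colec12, a scavenger receptor, fell (-1.02 ± 0.20, edgeR adjusted p = 0.00975), and Fcnb, a ficolin of myeloid cells, had 0.62 ± 0.32 (edgeR adjusted p = 0.171). The terminal genes, whose products form the membrane attack complex, were low, with 7 genes summing to 7.14 to 10.9 CPM. C8g rose (1.02 ± 0.31, edgeR adjusted p = 0.0402) and C6 had 0.04 ± 0.30 (edgeR adjusted p = 0.922).

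DNA methylation at the member genes was read as the percentage of 5-methylcytosine (5mC) in oxidative bisulfite (oxBS) libraries, within 1000 bases on each side of the gene start, at cytosines with at least 10 reads in all 6 libraries of a time. This covered 5 of 9 members, C1qb, C2, C4b, Serping1 and Cd55, with 3 or more such cytosines. With 3 libraries in each limb no test was made. At 4 weeks 0 of 5 had limbs that did not overlap, against 9.43% of 14745 promoters. At 12 weeks 2 of 5, C2 and Serping1, were lower in every DMM library, against 12.2% of 14612 promoters (16.5% in either direction).

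Serping1 had 7 cytosines measured at both times, all in intron 1, 422 to 549 bases after the start. The stretch that holds them, chr2:84774860-84775027 of GRCm38.p6 on the minus strand, is shown with the measured CpGs in capitals.
Serping1 intron 1: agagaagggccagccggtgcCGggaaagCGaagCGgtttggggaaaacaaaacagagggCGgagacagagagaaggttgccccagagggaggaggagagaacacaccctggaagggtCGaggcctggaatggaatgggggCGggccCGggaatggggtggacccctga
Pooled over these cytosines, 5mC at 12 weeks was 41.1, 32.8 and 36.8% in control and 21.8, 24.0 and 25.3% in DMM libraries, from 259 to 669 reads in a library. At 4 weeks it was 45.3, 18.7 and 35.6% in control and 27.9, 10.4 and 16.9% in DMM libraries, from 163 to 1419 reads. The limbs were apart at 12 weeks and overlapped at 4 weeks, where 1 control library was as low as the DMM libraries. The mean was lower in DMM at 7 of 7 cytosines at both times, with no overlap at 1 cytosine at 4 weeks and at 5 at 12 weeks. These cytosines are close neighbours read in the same libraries, so they are not independent of each other. The share over all measured cytosines was not computed. At 4 weeks 10 more cytosines, 98 to 145 bases before the start, were measured, and these went both ways, 6 lower and 4 higher in DMM (from -15.3 to 5.63 points), with no overlap at 1. RNA and DNA came from different mice, so the lower 5mC and the higher Serping1 RNA of DMM cartilage were not measured in the same samples. The cell makeup of the DNA pools was not analysed here, and its part in the 5mC values of the members was not tested.

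**Figure D5:**
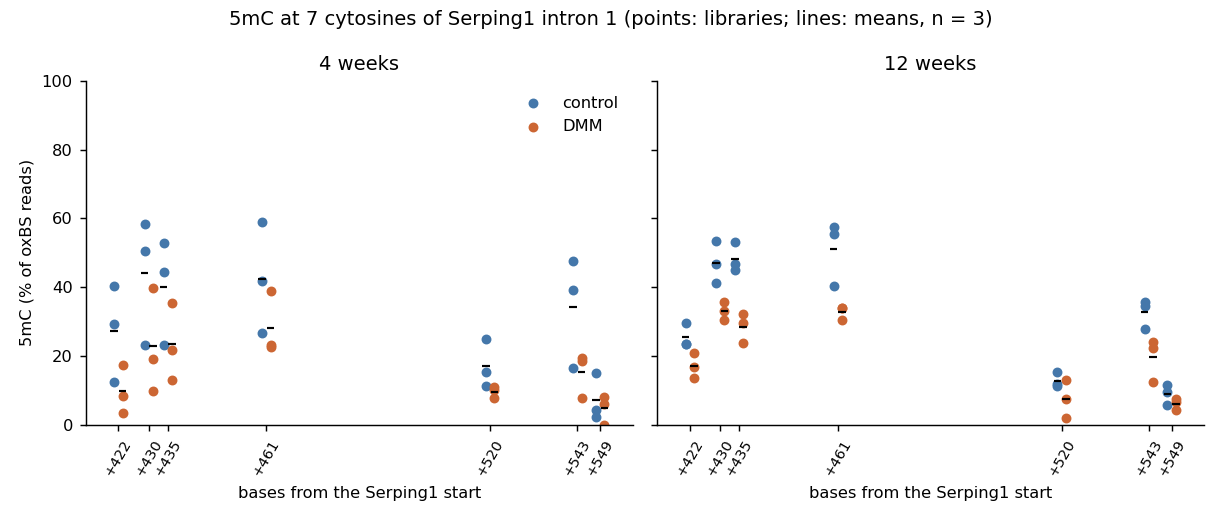
5mC percentage (vertical axis) at 7 cytosines of Serping1 intron 1 by their distance from the gene start in bases, with 1 point for each oxBS library, control in blue and DMM in orange, and lines for the means of 3 libraries. At 12 weeks the limbs were apart at 5 of 7 cytosines and at 4 weeks at 1 of 7, but these neighbours in the same libraries are not independent of each other.

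C2 had 4 cytosines in intron 1 and exon 2, 282 to 345 bases after the start. At 12 weeks 5mC was 45.1, 38.5 and 42.4% in control and 34.3, 30.1 and 25.7% in DMM libraries, from 123 to 394 reads, and at 4 weeks 41.1, 23.7 and 34.1% and 31.4, 26.03 and 24.6%. The RNA of C2 did not pass the test at either time.

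Cd55 was the most densely covered member, with 29 cytosines, and had low 5mC near its start. The 250 bases before its start, chr1:130462745-130462994 of GRCm38.p6 on the minus strand, are shown with the 2 measured CpGs in capitals.
Cd55: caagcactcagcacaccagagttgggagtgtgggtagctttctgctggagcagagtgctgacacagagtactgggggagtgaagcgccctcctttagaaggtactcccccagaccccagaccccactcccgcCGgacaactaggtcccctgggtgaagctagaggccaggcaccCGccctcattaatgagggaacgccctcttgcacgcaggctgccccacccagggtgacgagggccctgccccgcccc
These 2 cytosines had 0 to 6.25% 5mC over all 12 libraries. Over its 29 cytosines Cd55 had 8.84% ± 0.48 in control and 9.82% ± 1.60 in DMM libraries at 4 weeks, and 9.46% ± 2.09 and 8.595% ± 1.75 at 12 weeks (SD, n = 3), which overlapped at both times. C1qb had 59.4% ± 2.66 in control and 60.3% ± 1.68 in DMM libraries at 4 weeks over 3 cytosines, which also overlapped. C4b had 49.2% ± 5.19 in control and 42.7% ± 10.3 in DMM libraries at 4 weeks over 6 cytosines. At 12 weeks C4b had 51.1% ± 7.28 and 49.1% ± 1.86 over 4 cytosines, and its limbs overlapped at both times.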

How the data were processed

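The member genes and the gene lists were chosen with earlier results of these data known. RNA was measured in 12 libraries and 5mC in 12 oxBS libraries. The deposited RNA files hold raw read counts per RefSeq transcript, which the authors made with featureCounts from STAR alignments to mm10 after adapter trimming by FLEXBAR. The submitters' processing notes also name CASAVA 2.17 and Bismark. Whether counting used strand is not given in the sources used here, and the labels and the study's methods name different library kits. For methylation, the deposited files give read counts covering each CpG and the percent of them read as C, for cytosines with at least 10 reads. The libraries without oxidation were not analysed here.

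Symbols came from RefSeq for 29476 rows and from the study's supplement for 17, and 555 rows had none. Counts were tested with edgeR 4.0.16 in R 4.3.3 (TMM scaling, filterByExpr, robust quasi-likelihood test, Benjamini-Hochberg adjustment over all rows, adjusted p under 0.05), on the 6 libraries of a comparison or all 12 for the interaction, and with DESeq2 1.42.0 as an alternative. The edgeR and 5mC computations were tested on simulated data. CPM used TMM factors, and log2 CPM a prior count of 2. Replicates are pools of knees, and p-values measure the spread between these pools. Depth differed between the libraries too, from 27706547 to 62737656 counts. 5mC was the pooled percent of reads over a promoter, computed in Python 3.11.15, with 59 of 59 positions checked to be CpGs in GRCm38.

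Named genes were all members, the 2 genes of each complement role with the highest level per length, other complement genes called by edgeR, and for each member the 3 genes most alike. Itgam was named after its values were seen. A gene that this rule would name is not reported here. The markers Cd68 and Ahsp were not analysed here. Alternatives were other scaling, filters, fits, thresholds and leaving out each library.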

Additional observations from a re-analysis of the deposited data

How the results depend on the processing

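DESeq2 called 1 member between DMM and control at 4 weeks, 2 at 12 weeks and 1 between the times in control, where edgeR called 0 each. The cause was not tested. Over all rows it called 747, 861 and 2593, and edgeR 16, 1 and 0. With a replicate block edgeR called 1 member at 12 weeks, C3 (adjusted p = 0.0352), and 734 of all rows (354 at 4 weeks). A fit of all 12 libraries called 35 of all rows at 4 weeks and 1229 between the times in control. The knees of a mouse were both used, but no source says that equal numbers mark the same mice, and deviations of equally numbered libraries correlated at -0.539 to 0.363 across the limbs, not always best with their own number. An adjusted p under 0.01 left 2 of 7 calls between the times in DMM cartilage, Serping1 and Cd55. The other 42 counts under alternatives that kept all libraries stayed within 1.5 times. Leaving out 1 library gave 0 calls at 4 weeks, 0 to 1 at 12 weeks, 0 for the interaction, 0 to 2 between the times in control, 4 to 7 in DMM, and 0 to 3 and 2 to 3 promoters with limbs apart at 4 and 12 weeks. It reversed log2 fold changes that passed edgeR's test neither before nor after. C3 at 4 weeks ranged from -0.24 to 0.39, with -0.16 too, and C4b at 12 weeks from -0.15 to 0.27, with -0.0027 and -0.054 too. The interaction ranged from -0.48 to 0.0043 for C1ra and from -0.55 to 0.10 for Serping1, with 0.055 too. For C2 it ranged from -0.18 to 0.30 and was below 0 in 4 of 12 fits, with -0.011 and -0.053 among them. Between the times C2 ranged from -0.18 to 0.30 in control, with -0.055, -0.11 and -0.058 too, and from -0.041 to 0.24 in DMM. C4b ranged from -0.21 to 0.25 in control and was below 0 in 2 of 6 fits. Restricting 5mC to cytosines covered in all 12 libraries, chosen after seeing the data, moved neither promoter count.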

Other observations

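For each member the 3 genes most alike over the 12 RNA libraries were found among 15941 genes, by the root mean square (RMS) difference of log2 CPM after each gene's mean was subtracted. The 12 libraries share depth, scaling and tissue makeup, so these values describe likeness alone. C1qb was most like C1qc (RMS 0.086), C1qa (0.101) and H2-Aa (0.130). C1qa was most like C1qc (0.098), C1qb and H2-Aa (0.122), and C1qc was most like both other chains and Cd40 (0.112). The differences between the chains were small beside the variation of C1qb itself over the libraries (RMS 0.539).

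Serping1 was most like C1s1 (0.177), which encodes a protease that its product blocks, then Fstl1 (0.192) and Nnmt (0.209). C1ra was most like Ltc4s (0.125), Cnrip1 (0.146) and Lgals1 (0.152), and Cd55 was most like Ctsl (0.156), an unnamed row and Lgals1 (0.195). C1ra, Serping1 and Cd55 were nearer to each other (0.255 to 0.320) than Serping1 was to the C1q chains (0.609 to 0.654), but Cd55 (0.358 to 0.396) and C1ra (0.397 to 0.433) were not far from the chains.

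C4b was far from all other members (0.909 to 1.36) and was most like Plxnb1 (0.149), Srebf1 (0.191) and Fgfr3 (0.192). C3 was most like Il18rap (0.271), Lilr4b (0.272) and Lilrb4a (0.276). C2 was most like Magi3 (0.215), Rad51b (0.231) and Uchl4 (0.233). Its own variation over the libraries was 0.355, with 135 to 273 counts.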
